A study of Mus musculus with 81 samples.

Results

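The mouse carries 2 genes for the bacteria-killing enzyme lysozyme, Lyz1 and Lyz2, which lie side by side on chromosome 10. Both were taken by symbol from the gene counts, 2 of the 54079 genes listed in every library, and were followed through 79 of 81 RNA-seq libraries that fall into 27 groups and give 12 pairs of a WT and a cKO group. WT mice were H3f3a fl/fl H3f3b fl/fl, with unrecombined conditional alleles of both genes for the histone variant H3.3. H3.3cKO mice (cKO) had the same floxed alleles together with LysM cre/cre, in which the cre recombinase sits in both copies of Lyz2 itself, and the double KO mice (H3.3cKO:StingKO, H3.3cKO:MavsKO and H3.3cKO:Irf7KO) carried the same alleles with a knockout of Sting, Mavs or Irf7. The mice were derived from a C57BL/6 background, and the bone marrow came from animals of 8 to 10 weeks. The paper lists the parent lines of the cre, Sting, Mavs and Irf7 alleles under names that include a second strain. With cre in both copies, Lyz2 was disrupted in every cell of every cKO and double KO animal. H3.3 loss followed only where Lyz2 is active, and no library had the cre allele alone. Loss of H3.3, loss of Lyz2 and any effect of the cre allele or its flanking DNA on the neighbouring Lyz1 therefore cannot be told apart here. The pair was selected on the counts of these libraries, in which Lyz2 and Lyz1 had been seen to differ between cKO and WT, so their cKO and WT levels are given as a description, with no test.

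The libraries came from 5 experiments, each normalized on its own. Bone marrow cells cultured in L929-conditioned medium, which turns progenitors into bone marrow-derived macrophages (BMDMs), were taken on days 3, 5 and 7 (3 WT and 3 cKO libraries a day). BMDMs on day 8 were left untreated or given interferon-γ (IFNγ) for 12 h (3 WT and 2 cKO libraries each). BMDMs grown with no antibody, a control antibody or an antibody blocking the type I interferon receptor chain IFNAR1 (10 µg per mL) made another experiment, with 3 libraries a group. By the paper's methods the antibodies were present from the start of culture and renewed every 12 h, so exposure covered differentiation. A further one held 3 sets of WT and cKO BMDMs and the 3 double KO groups, again 3 libraries each, and the last held macrophages taken directly from the peritoneal cavity (3 WT and 3 cKO).

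Lysozyme cuts the sugar backbone of peptidoglycan, the polymer of the bacterial cell wall. In the mouse, Lyz2 (lysozyme M) is the form made by macrophages and granulocytes and is used throughout the field as a myeloid marker and as a driver of cre, while Lyz1 (lysozyme P) is best known as a granule protein of the Paneth cells of the small intestine. Fragments released by lysozyme are sensed inside phagocytes by NOD receptors, so that the enzyme both kills bacteria and feeds an inflammatory signal.

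In the GRCm38 assembly (GENCODE M21) both genes lie on the minus strand of chromosome 10 and have 4 exons each, with coding sequence in all 4 and with the 3′ UTR in exon 4. Lyz2 (ENSMUSG00000069516) spans chr10:117277331-117282321, and Lyz1 (ENSMUSG00000069515) spans chr10:117287797-117292868, with 5475 bases between them. Their coding sequences are 444 bases each and differ at 22 positions (95% identity). The first 90 coding bases are shown because they give the scale on which reads can be told apart, with the 7 differing bases in capitals:
Lyz1: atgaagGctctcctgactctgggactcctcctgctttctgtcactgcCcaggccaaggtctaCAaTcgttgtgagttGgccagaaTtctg
Lyz2: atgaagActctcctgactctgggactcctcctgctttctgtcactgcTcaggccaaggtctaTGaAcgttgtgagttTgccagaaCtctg

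The segments 150 to 51 bases before the RefSeq start sites (GRCm38.p6, minus strand, chr10:117292919-117293018 for Lyz1 and chr10:117282323-117282422 for Lyz2) are shown because the 2 genes differed widely in level. AGGAAG, a core of the kind bound by PU.1 and other ETS factors of myeloid cells, was searched on both strands and is in capitals (it reads CTTCCT where it lies on the other strand). The Lyz2 segment holds it 2 times and the Lyz1 segment 1 time, at the same distance of 99 bases as one of the Lyz2 matches. Of 32851 promoters, 13.2% hold the motif in the same window, and without gaps the 2 segments share 79 of 100 bases:
Lyz1: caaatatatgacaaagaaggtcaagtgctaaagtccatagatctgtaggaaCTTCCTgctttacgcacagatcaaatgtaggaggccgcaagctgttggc
Lyz2: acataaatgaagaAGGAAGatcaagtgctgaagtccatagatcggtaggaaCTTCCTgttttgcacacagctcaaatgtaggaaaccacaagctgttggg

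The libraries held 3614967 to 45581528 counts assigned to genes. H3f3a fell in cKO against WT in 12 of 12 pairs by edgeR's quasi-likelihood test, to 8.14 to 27.3% of WT. H3f3b passed the test in 3 of 12 pairs, those of the antibody experiment (11.6 to 13.2% of WT), and stood at 75 to 89.4% in the other 9. All 10 macrophage markers reached 1 CPM (count per 1000000 counts, scaled by TMM) in every group, and all 8 markers of large peritoneal macrophages did so in both peritoneal groups. RNA from bulk samples cannot tell fewer cells of a type from less RNA per cell. Peritoneal libraries were made with another kit (SMART-Seq v4) than the rRNA-depleted BMDM libraries, so levels set across experiments are descriptions.

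In WT macrophages Lyz2 was among the most abundant transcripts of the cell and Lyz1 was a minor one. Lyz2 ranked 2 to 6 of all genes by CPM per kilobase of exon in the 33 WT libraries of bone marrow cultures, and took 0.410 to 2.33% of their gene counts. In peritoneal WT macrophages it ranked 1 in each library and took 6.23% ± 1.32 (SD, n = 3) of all gene counts. Lyz1 had 1.39 to 22.0 CPM in the 33 WT bone marrow libraries. In the same libraries its counts were 0.0203 to 0.117% of those of Lyz2.

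Reads shared by the 2 genes bear on how Lyz1 is counted next to so abundant a neighbour. Of all stretches of 50 bases in the Lyz1 transcript, 16.1% also occur in Lyz2, which falls to 6.22% for 75 bases and 2.06% for 100 bases. A read pair that matches both genes alike is not counted for either, and a Lyz2 read misplaced onto Lyz1 would count for Lyz1. In WT cells such misplaced reads can be no more than the Lyz1 count itself, that is at most 0.117% of Lyz2 counts in any bone marrow culture and 1.32% in any peritoneal library. In the cKO peritoneal libraries Lyz2 stood at 0.0383 to 0.0799% of Lyz1 per kilobase, which bounds misplacement the other way.

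**Figure D1:**
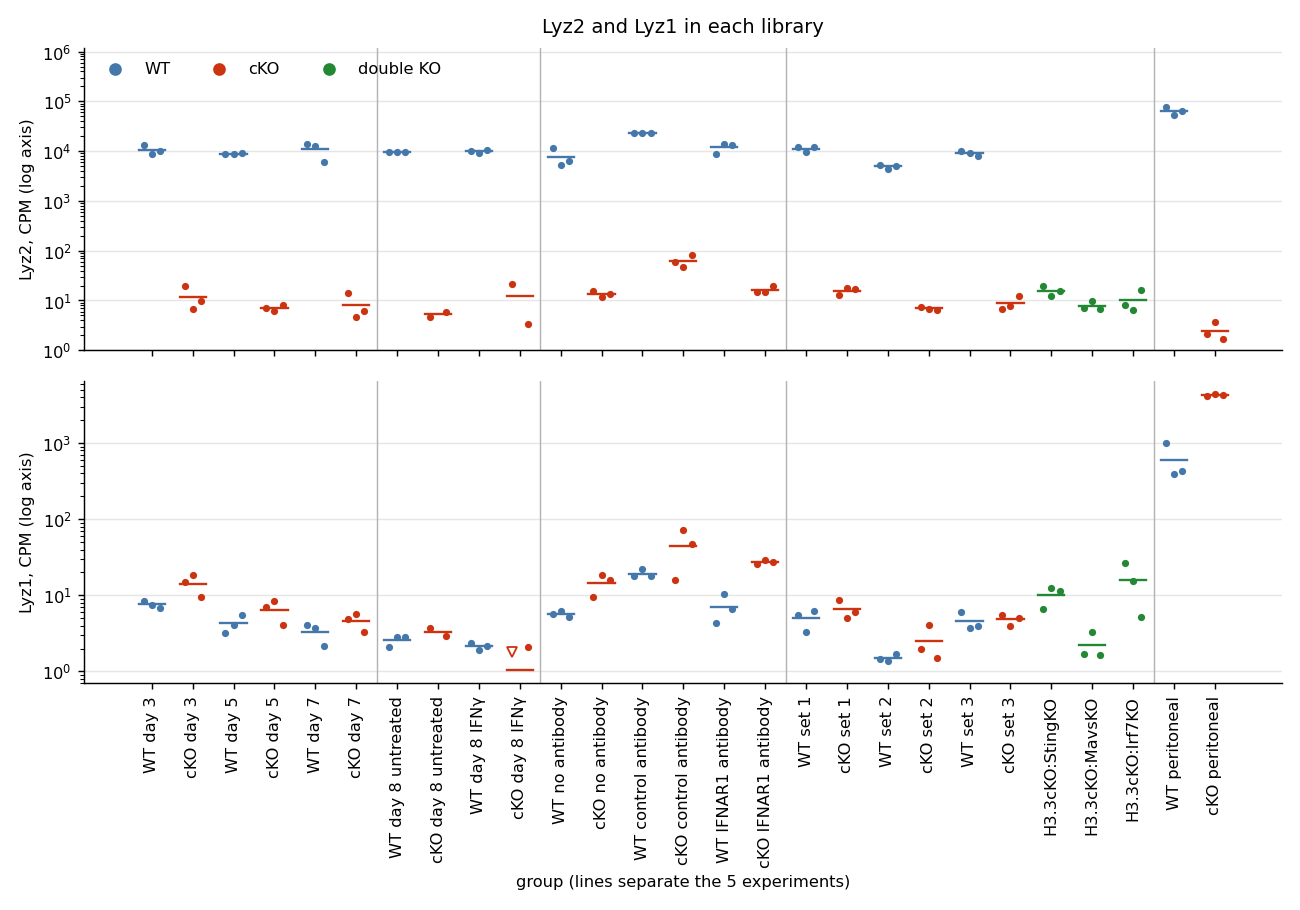
Lyz2 (top) and Lyz1 (bottom) in each library, in TMM-scaled CPM on log axes, by group. Points are libraries, short lines are group means, grey lines separate the 5 experiments, and the open triangle marks the library with 0 counts at its 3-count limit (1.81 CPM). Lyz2 separates WT from cKO and double KO libraries everywhere, and Lyz1 stands apart in peritoneal macrophages.

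Lyz2 was lower in every cKO library than in every WT library of its condition in 12 of 12 pairs. The share of all tested genes that separated in that direction was 15.8% on day 3, 11.1% on day 5, 7.09% on day 7, 13.9% and 18.7% on day 8 without and with IFNγ, 6.5% in peritoneal macrophages, 19.2%, 18.5% and 4.47% with no, control and IFNAR1 antibody, and 20.1%, 24.5% and 22.4% in the sets. In bone marrow cultures 0.0560 to 0.271% of the WT level was left, a difference of 369 to 1787-fold. On day 5, for example, Lyz2 had 8758, 8874 and 9009 CPM in the WT libraries and 7.17, 6.23 and 8.27 CPM in the cKO libraries. The remaining Lyz2 signal was small but was counted in every cKO library, with no fewer than 13 reads. The paper states that samples were pooled for sequencing. Whether these reads came from the disrupted gene or from other libraries was not tested.

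The lowest Lyz2 level was in peritoneal macrophages. Lyz2 had 76406, 52395 and 63840 CPM in WT and 2.10, 3.64 and 1.69 CPM in cKO peritoneal macrophages. The means differed 25928-fold, and the fitted difference was -14.61 on the log2 scale (SE 0.48). Of the 15 cKO and double KO groups, the peritoneal one had the lowest Lyz2 mean, and its libraries lay below both of the next group (day 8 untreated, 4.71 and 5.97 CPM), although 1 cKO IFNγ library, at 3.3 CPM, lay within its range.

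For Lyz1 the widest difference between cKO and WT cells was in the peritoneal cavity. It had 1010, 389 and 428 CPM in WT and 4167, 4374 and 4236 CPM in cKO peritoneal macrophages. Every cKO library was above every WT library, as were 8.47% of all 12361 genes tested. The mean was 699% of WT, a log2 difference of 2.81 (SE 0.36). WT replicate 1 was well above the other 2 WT libraries, and without it the difference was 3.38. Lyz1 ranked 45, 106 and 99 in WT and 7, 5 and 5 in cKO among 54079 genes by CPM per kilobase, so that it was among the top transcripts of cKO peritoneal macrophages.

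The Lyz1 difference was small beside that of Lyz2. On the scale of CPM per kilobase of exon, Lyz2 had 48795 in WT and 1.88 in cKO, and Lyz1 had 482 and 3372, in peritoneal macrophages. The Lyz1 difference came to 5.92% of the Lyz2 difference. The sum of both genes was 6.85% ± 0.171 (SD over 3 cKO libraries) of the WT mean, and 99.9% of it was Lyz1. Leaving out a WT library moved this sum between 6.23 and 7.58%.

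**Figure D2:**
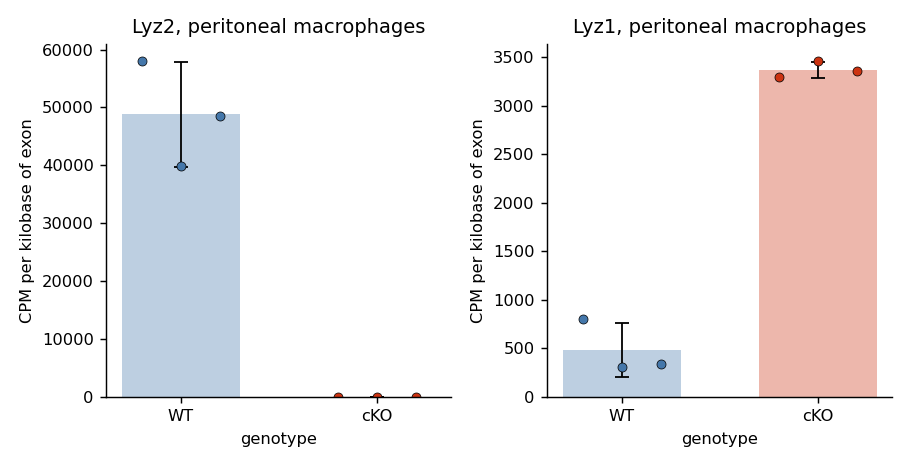
Lyz2 (left) and Lyz1 (right) in WT and cKO peritoneal macrophages, in CPM per kilobase of exon on separate linear axes that start at 0. Bars are means, points are the 3 libraries and error bars are SD. Lyz2 is at 1.88 in cKO, and Lyz1 is at 3372 against 482 in WT.

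Markers of other cell types were counted in the peritoneal libraries as well, and their part in the result was not tested. The summed level of 12 neutrophil and granulocyte precursor markers was 152 to 306 CPM in WT and 136 to 224 CPM in cKO, with Mpo at 0 in cKO. The summed B cell markers were 2.20 to 3.19 CPM in WT and 2.06 to 4.42 CPM in cKO, where Ebf1 and Pax5 were at 0. Dendritic cell markers summed to 5.62 to 7.81 CPM in WT and 7.18 to 22.6 CPM in cKO, and stromal markers to 8.66 to 71.9 and 6.49 to 25 CPM. Large peritoneal macrophage markers summed to 32445 to 75093 CPM in WT and 43576 to 60391 CPM in cKO, although Cxcl13, a chemokine on that list, fell (log2 -3.82, SE 0.57, adjusted p = 0.0217 by edgeR's quasi-likelihood test with Benjamini-Hochberg adjustment).

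In bone marrow cultures the Lyz1 difference had the same direction in most conditions, at a far lower level. The cKO mean was above the WT mean in 10 of 11 pairs of groups, at 105 to 382% of WT, and below it under IFNγ (49.2%). Every cKO library was above every WT library in 4 of the 11, namely day 3, day 8 untreated, no antibody and IFNAR1 antibody. Among all genes tested, 18.3%, 18%, 20.2% and 4.19% separated in that direction in these 4 pairs. In the other pairs the share was 15.4% on day 5, 9.5% on day 7, 15.8% under IFNγ, 18.3% with the control antibody and 21.3%, 20% and 20.8% in the sets. The count of 4 of 11 was not tested against these shares.

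The largest separation among the bone marrow cultures was under the IFNAR1 antibody. Lyz1 had 4.38, 10.4 and 6.57 CPM in WT and 25.5, 29.0 and 27.2 CPM in cKO, a log2 difference of 1.95 (SE 0.42). Without antibody it had 5.63, 6.17 and 5.22 CPM in WT and 9.55, 18.7 and 15.8 CPM in cKO, a difference of 1.36 (SE 0.42). With the control antibody the groups overlapped, since 1 cKO library had 15.7 CPM and the other 2 had 71.6 and 47.4, against 17.8, 22.0 and 18.1 CPM in WT (1.18, SE 0.40).

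Over the days of culture the difference was 0.90 (SE 0.30) on day 3, 0.58 (SE 0.32) on day 5 and 0.46 (SE 0.34) on day 7. On day 3, Lyz1 had 8.39, 7.51 and 6.91 CPM in WT and 14.8, 18.3 and 9.62 CPM in cKO. On days 5 and 7 the groups overlapped in 1 cKO library each. Markers of other cells differed between the genotypes on these days as well, and their part in the Lyz1 difference was not tested. On day 3, 6 of 6 B cell markers (sums of 13.4 to 14.3 CPM in WT and 27.4 to 57.4 in cKO) and 3 of 6 dendritic cell markers (9.20 to 21.5 and 34.2 to 43.7 CPM) were called higher in cKO by edgeR, as were 6% of all genes. Of 12 granulocyte markers, 4 were called higher on day 5 (500.3 to 604 CPM in WT and 553 to 1892 in cKO) and 4 on day 7 (76.3 to 136 and 97.5 to 296 CPM), as were 2.46% and 1.13% of all genes. In the sets the difference was 0.43, 0.75 and 0.05 (SE 0.44, 0.53 and 0.44), and the libraries overlapped in each. In set 3 it turned to -0.04, -0.08 or -0.03 when cKO replicate 1, WT replicate 2 or WT replicate 3 was left out.

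Day 8 gave the 1 pair of groups with a lower cKO mean, which had a log2 difference of -0.52 (SE 0.56) and of -0.01 without its shallow library. Untreated cells had 2.08, 2.87 and 2.80 CPM of Lyz1 in WT and 3.73 and 2.93 CPM in cKO. Under IFNγ, WT cells had 2.36, 1.93 and 2.17 CPM and the cKO libraries 0 and 2.12 CPM. That shallow library, the one at 0, held 3614967 gene counts, the fewest of all, and its 0 counts allow up to 1.81 CPM (3 counts, counting error only), a limit just below the lowest WT library. The other cKO library lay within the WT range.

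**Figure D3:**
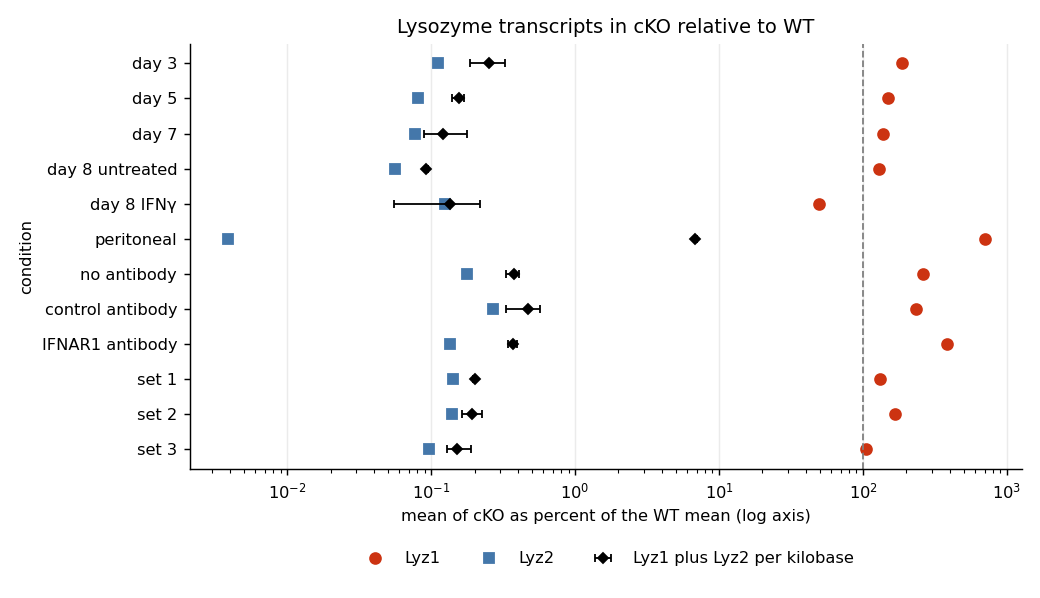
Mean Lyz1 (circles), Lyz2 (squares) and both genes summed per kilobase of exon (diamonds, bars from the lowest to the highest cKO library) in cKO cells as a percentage of the WT mean, on a log axis, for the 12 conditions. Lyz2 lies at or below 0.271% throughout, Lyz1 above 100% except under IFNγ, and the sum reaches 6.85% in peritoneal macrophages and at most 0.473% elsewhere.

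The lysozyme signal left in cKO bone marrow cultures was 0.0924 to 0.473% of WT for both genes together. The Lyz1 difference was -0.0114 to 0.174% of the Lyz2 difference per kilobase in these 11 pairs, against 5.92% in peritoneal macrophages. In the 40 cKO and double KO bone marrow libraries Lyz1 made up a median of 39.4% of what was left (0 to 77.4%). The remaining counts were thus assigned to both genes, in contrast to the peritoneal cells.

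Most neighbouring groups could not be told apart when ordered by level. For Lyz1 in WT, the peritoneal group (609 ± 348 CPM, n = 3) stood above all others, the control antibody group followed (19.3 ± 2.36), and set 2 stood at the bottom (1.51 ± 0.163). The other 8 of 11 neighbouring pairs in that order overlapped between libraries. For Lyz1 in cKO and double KO cells, the peritoneal group (4259 ± 105 CPM) stood apart and the other 13 of 14 neighbouring pairs overlapped. For Lyz2 in WT, the order ran from peritoneal (64214 ± 12010 CPM) and control antibody (23121 ± 228) down to set 2 (4945 ± 451), with 9 of 11 neighbours overlapping. For Lyz2 in cKO and double KO cells, the control antibody group was highest (62.6 ± 18.1 CPM), and 11 of 14 neighbours overlapped.

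The days of culture asked whether the lysozyme genes follow the maturation of progenitors into macrophages. Lyz1 fell between days 3 and 5 in cKO cells, from 14.2 ± 4.36 to 6.45 ± 2.22 CPM, a log2 change of -1.13 (SE 0.30, adjusted p = 0.0413 by edgeR's quasi-likelihood test). It was the 1 member called in that comparison, in which 4.89% of 15955 genes passed. In WT cells it had 7.60 ± 0.744 and then 4.29 ± 1.19 CPM (-0.81, SE 0.32, adjusted p = 0.166), and 2.91% of genes passed. In both genotypes every day 5 library was below every day 3 library, as held for 17.9% and 15.2% of genes in WT and cKO. The difference between the genotypes in this change was -0.32 (SE 0.44, adjusted p = 0.883).

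The cKO call was not a firm one. It was lost without cKO day 3 replicate 1 or 2 (adjusted p = 0.134 and 0.182) and without cKO day 5 replicate 1, 2 or 3 (0.0552, 0.0670 and 0.204), in edgeR's test in each case. Markers of granulocyte precursors were lower on day 5 as well, and their part in the Lyz1 level was not tested. Their 12 markers summed to 1721, 2301 and 3219 CPM in WT day 3 libraries and 604, 511 and 500 CPM on day 5, and to 4569, 3093 and 2930 CPM and then 1892, 621 and 553 CPM in cKO. Of these markers, 8 of 12 fell in WT and 9 of 12 in cKO by the same test, against 2.26% and 3.28% of all genes. B cell markers also went from 27.4 to 57.4 CPM on day 3 to 5.25 to 13.5 CPM on day 5 in cKO.

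Lyz2 passed the test neither from day 3 to day 5 nor from day 5 to day 7, the steps that were tested. In WT it had 13166, 8636 and 10217 CPM on day 3, stood as above on day 5 (log2 change -0.27, SE 0.40, adjusted p = 0.720 by edgeR), and had 13952, 12463 and 5928 CPM on day 7 (0.28, SE 0.40, adjusted p = 0.767). In cKO it had 19.4, 6.77 and 9.72 CPM on day 3 and 14.1, 4.57 and 6.29 CPM on day 7, with changes of -0.73 (SE 0.45, adjusted p = 0.422) to day 5 and 0.20 (SE 0.46, adjusted p = 0.997) from day 5 to day 7. Between days 5 and 7 neither gene passed in WT or in cKO, and 0.15% and 0.0501% of genes did. Lyz1 gave -0.38 in WT (SE 0.34, adjusted p = 0.593) and -0.50 in cKO (SE 0.32, adjusted p = 0.997) over these days. No gene passed for the difference between genotypes in either step by edgeR (0% of 15955), where 740 and 589 had an unadjusted p under 0.05 (4.64% and 3.69%), and DESeq2 called 0 and 1.

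**Figure D4:**
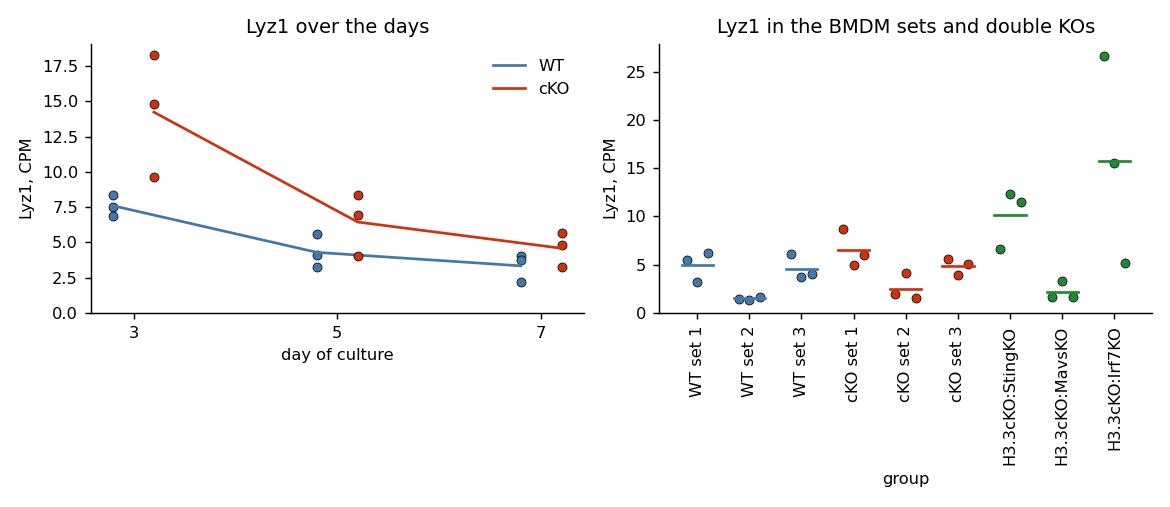
Lyz1 in CPM on linear axes that start at 0. Left, WT and cKO libraries on days 3, 5 and 7, with lines through the means, which go from 14.2 to 6.45 to 4.59 CPM in cKO and from 7.60 to 4.29 to 3.34 in WT. Right, the 3 sets of WT and cKO BMDMs and the double KO groups, with short lines at the means. The Irf7 double KO libraries spread from 5.13 to 26.6 CPM.

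IFNγ asked whether an activating signal changes lysozyme transcription. Neither gene passed the test in WT or in cKO cells, although 38.9% and 33.9% of 13075 genes did by edgeR. In WT, Lyz2 had 9648, 9500 and 9458 CPM untreated and 10019, 9362 and 10653 CPM with IFNγ (log2 0.07, SE 0.47, adjusted p = 0.924). Lyz1 gave -0.26 (SE 0.44, adjusted p = 0.679) in WT. In cKO, with 2 libraries a group, Lyz1 gave -1.14 (SE 0.58, adjusted p = 0.160) and Lyz2 1.10 (SE 0.63, adjusted p = 0.211).

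The cKO values under IFNγ rest on the shallow library, in which Lyz2 had 36 counts (21.7 CPM) against 28 counts (3.3 CPM) in the other. The shallow library also had 57.06% of its reads unmapped, against 12.57 to 18.35% in the other day 8 libraries. Its TMM factor was 0.46, which raises its CPM values. With the shallow library as the sole one of its group, edgeR gave -7.88 for Lyz1 (adjusted p = 0.0122) and 2.0 for Lyz2 (adjusted p = 0.000412), a fit in which that library was assumed to vary like the other groups. The fitted fold of a gene at 0 counts depends on the prior count and is no bound. For the difference between the genotypes, Lyz1 gave -0.88 (SE 0.73, adjusted p = 0.688) and Lyz2 1.02 (SE 0.78, adjusted p = 0.660). No gene passed there by edgeR (0%), with 1205 at an unadjusted p under 0.05 (9.22%) and 49 called by DESeq2.

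Both lysozyme genes rose with the control antibody in WT cells. Lyz2 had 11375, 5282 and 6475 CPM without antibody and 22954, 23028 and 23380 CPM with the control antibody in WT cells. It rose by 1.58 (log2, SE 0.28, adjusted p = 0.00628 by edgeR), and Lyz1 rose by 1.77 (SE 0.42, adjusted p = 0.0201). Both members were called, in a comparison in which 9.73% of 17191 genes passed. Lyz1 counts were 0.0823% ± 0.0337 of Lyz2 counts without antibody and 0.0835% ± 0.0105 with the control antibody (SD, n = 3 each). The part of misplaced Lyz2 reads in the WT Lyz1 rise was not tested. All 3 control antibody libraries lay above all 3 without antibody for both genes, as held for 21.6% of genes in that direction.

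In cKO cells the counts assigned to Lyz2 rose as well, from 15.8, 11.9 and 13.5 CPM to 59.8, 46.1 and 81.9 CPM (2.19, SE 0.30, adjusted p = 0.00514 by edgeR). WT Lyz2 rose in the same step, and the source of the cKO counts was not tested. Lyz2 was the 1 member called in cKO, where 2.09% of genes passed. Lyz1 gave 1.58 (SE 0.41, adjusted p = 0.0577), with 1 of 3 libraries within the range of those without antibody. It passed when cKO control antibody replicate 1 was left out (2.02, adjusted p = 0.00410) and with the replicate number as a block (1.50, adjusted p = 0.0147), and the Lyz2 call was lost without cKO no antibody replicate 2 (adjusted p = 0.0534), all by edgeR. In WT, the Lyz1 call was lost without control antibody replicate 2 or 3 (adjusted p = 0.0931 and 0.0602) or no antibody replicate 2 or 3 (0.0602 and 0.0754).

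Against the control antibody, the IFNAR1 antibody went with lower levels. In WT cells Lyz2 had 8782, 13927 and 13474 CPM with the IFNAR1 antibody and fell by 0.94 (log2, SE 0.28, adjusted p = 0.0424 by edgeR). Lyz1 fell by 1.46 (SE 0.42, adjusted p = 0.0369). Both members were called, as were 11.2% of genes. Lyz1 counts were 0.0578% ± 0.0147 of Lyz2 counts with the IFNAR1 antibody (SD, n = 3), and the part of misplaced Lyz2 reads was not tested. Every IFNAR1 antibody library was below every control antibody library, as held for 17.2% of genes. The range without antibody was 5282 to 11375 CPM for Lyz2 and 5.22 to 6.17 CPM for Lyz1.

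Both WT calls were lost when 1 library was left out. For Lyz1 this held for control antibody replicates 1, 2 and 3 (adjusted p = 0.0790, 0.132 and 0.0861 by edgeR) and IFNAR1 antibody replicate 1 (0.15). For Lyz2 it held for the same 3 control libraries (0.103, 0.122 and 0.102) and IFNAR1 antibody replicates 1 and 2 (0.156 and 0.0627). In cKO cells Lyz2 had 15, 14.7 and 19.3 CPM with the IFNAR1 antibody and fell by 1.95 (SE 0.30, adjusted p = 0.00373), the 1 member called among 4.68% of genes. Lyz1 gave -0.68 there (SE 0.40, adjusted p = 0.361) and passed without cKO control antibody replicate 1 (-1.12, adjusted p = 0.0489).

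The difference between the genotypes in the IFNAR1 antibody effect was 0.78 for Lyz1 (SE 0.57, adjusted p = 0.928 by edgeR) and -1.01 for Lyz2 (SE 0.40, adjusted p = 0.784). No gene passed by edgeR (0%), with 991 at an unadjusted p under 0.05 (5.76%), and DESeq2 called 48. Granulocyte markers were low in all 18 libraries (1.88 to 7.88 CPM in sum). Stromal markers summed to 157 to 291 CPM in the cKO control antibody libraries, against 35.2 to 77.6 CPM without antibody and 41.2 to 84.8 CPM with the IFNAR1 antibody, and their part in the result was not tested.

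**Figure D5:**
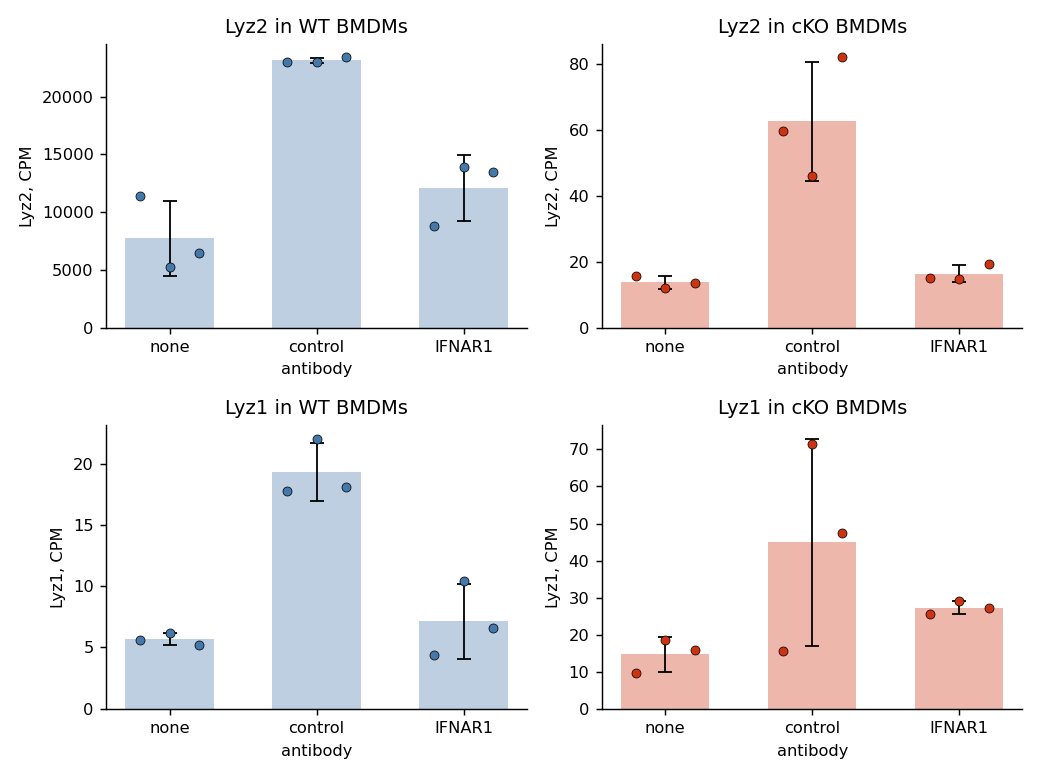
Lyz2 (top) and Lyz1 (bottom) in WT (left) and cKO (right) BMDMs with no antibody, the control antibody or the IFNAR1 antibody, in CPM on separate linear axes that start at 0. Bars are means, points are the 3 libraries and error bars are SD. The control antibody group is highest in each panel, with 1 low cKO library for Lyz1 (15.7 CPM).

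The double KO groups asked whether Sting, Mavs or Irf7, which carry nucleic acid signals to interferon, bear on the lysozyme counts that were left. Each was compared with the mean of the 3 cKO sets, since the labels do not tie a set to a double KO. That reference is mixed. The libraries of sets 1 and 2 and of the Sting and Mavs double KO list 55536 genes each. Those of set 3 and the Irf7 double KO list 54146. The Lyz1 means of cKO sets 1, 2 and 3 were 6.54, 2.52 and 4.84 CPM. Sting transcript (Tmem173) was at 7.01% and Irf7 at 30.1% of the cKO level in their groups, while Mavs was at 82.9%, and a gene count does not tell which exons are present. The 3 comparisons share their cKO libraries.

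In the Sting double KO, Lyz1 had 6.60, 12.4 and 11.5 CPM against 1.50 to 8.65 CPM in the 9 cKO libraries. It rose by 1.23 (log2, SE 0.32, adjusted p = 0.00431 by edgeR) and 2 of 3 libraries lay above all cKO libraries. Lyz2 had 19.8, 12.1 and 15.3 CPM and rose by 0.66 (SE 0.20, adjusted p = 0.0125). Both members were called, in a comparison in which 36.4% of 18083 genes passed. The Lyz2 call was lost without Sting double KO replicate 1 (0.45, adjusted p = 0.170). Against cKO set 1 alone, neither was called (Lyz1 0.63, adjusted p = 0.274, and Lyz2 -0.01, adjusted p = 0.981), and the cKO sets themselves differed, with Lyz2 means of 15.9, 6.92 and 8.89 CPM.

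In the Irf7 double KO, Lyz1 had 26.6, 15.5 and 5.13 CPM. It rose by 1.87 (SE 0.30, adjusted p = 0.000220 by edgeR), with 2 of 3 libraries above all cKO libraries and the other within their range, and 10.6% of genes passed. Lyz2 had 8.11, 6.49 and 16.2 CPM and gave 0.03 (SE 0.21, adjusted p = 0.955). The Lyz1 levels of the 3 libraries spread widely, and the Lyz2 level was highest in the library with the lowest Lyz1.

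In the Mavs double KO, Lyz1 had 1.67, 3.29 and 1.64 CPM (log2 -0.95, SE 0.40, adjusted p = 0.157 by edgeR) and Lyz2 7.20, 9.89 and 6.68 CPM (-0.33, SE 0.22, adjusted p = 0.407), and 9.32% of genes passed. Every library of both genes lay within the range of the cKO libraries. Against cKO set 1 alone both genes were called lower (-1.55, adjusted p = 0.0268, and -1.0, adjusted p = 0.0110). Over all alternative settings, each set alone included, the values reached -0.17 for Lyz1 and 0.20 for Lyz2 at the other end. In cKO set 2 the means were 2.52 CPM for Lyz1 and 6.92 CPM for Lyz2, against 2.20 and 7.92 CPM in the Mavs double KO. Granulocyte markers summed to 268 to 282 CPM in the Sting, 92.7 to 135 in the Irf7 and 67.8 to 132 in the Mavs double KO, against 168 to 380 CPM in the cKO sets, and their part in the Lyz1 values was not tested.

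Of the other lysozyme genes only Lyzl4 reached a level like that of Lyz1 in the cultures. Of 8 relatives (Lyzl1, Lyzl4, Lyzl6, Spaca3, Spaca5, Lalba, Lyg1 and Lyg2), which act mainly in sperm, milk or as goose-type lysozymes, only Lyzl4 was high enough to be tested, and none was in peritoneal macrophages. Lyzl4 had 6.80 ± 2.28, 8.79 ± 0.725 and 5.98 ± 1.24 CPM (n = 3 each) in WT sets 1, 2 and 3, each mean above that of Lyz1 in the same set, with no length taken into account. Lyzl4 was lower in cKO than in WT on day 3 (1.28 ± 0.141 against 3.18 ± 0.435 CPM, n = 3 each, adjusted p = 0.0485 by edgeR) and in sets 1, 2 and 3 (log2 -0.73, -2.01 and -0.65, adjusted p = 0.0266, 1.55e-06 and 0.0466). The share of all genes called in these 4 comparisons was 8.65%, 34.6%, 21.9% and 35.9%, and it was 3.12% on day 5, 1.82% on day 7, 0.658% and 5.45% on day 8 without and with IFNγ, and 8.16%, 5.11% and 0.698% with no, control and IFNAR1 antibody. Lyzl4 also fell with IFNγ in WT (-3.51, adjusted p = 0.000400) and rose in WT with the IFNAR1 antibody against the control antibody (2.07, adjusted p = 0.0158). 

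A list of genes for the handling and sensing of peptidoglycan, called peptidoglycan genes here, was followed as well. It also holds Naip2, Naip5 and Nlrc4, which belong to the sensing of other bacterial products. In the peritoneal cells, of 13 tested genes of this list, 1 rose in cKO, and 1.06% of all genes were called (0.639% higher). It was Pglyrp1, a secreted peptidoglycan-binding protein, at 20.6 ± 4.66 CPM in WT and 59.3 ± 16.6 in cKO (log2 1.54, SE 0.25, adjusted p = 0.0291 by edgeR). Of 15 antibacterial effectors, 1 rose, the secreted ribonuclease Rnase4 (1.52, SE 0.24, adjusted p = 0.0242). The list medians were 0.25 and 0.37, against 0.00 for all genes.

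In the sets, 7, 5 and 3 of 13 peptidoglycan genes and 5, 7 and 6 of 17 antibacterial effectors were called in either direction between cKO and WT, against 34.6%, 21.9% and 35.9% of all genes. In the other bone marrow cultures 0 to 2 of 12 or 13 and 0 to 3 of 14 to 17 were called, against 0.658 to 8.65% of all genes. Slc15a3, a transporter of muramyl peptides, rose most of its list in 6 of the 11 comparisons, for example by 1.62 with the control antibody (adjusted p = 1.43e-06 by edgeR). Gbp2, a GTPase directed at bacteria in the cytosol, rose most with no, control and IFNAR1 antibody (2.23, 3.01 and 2.50).

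Treatments and days moved these lists in their own ways. From day 3 to day 5 Pglyrp1 fell in WT and cKO (-2.23 and -2.22, adjusted p = 0.0211 and 0.0124 by edgeR), as did Camp, which encodes a cathelicidin of granulocytes (-2.74 and -3.02). Under IFNγ, where 19.5% of all genes rose and 19.3% fell in WT and 17.5% and 16.4% in cKO, 6 of 12 peptidoglycan genes rose in WT and 5 in cKO, led by the sensor Nod1 (3.98 and 3.75), while the LPS co-receptor Cd14 fell (-2.20 and -1.79). The antibacterial list rose in 9 and 7 of 14, led by Nos2, the inducible nitric oxide synthase (11.02 and 9.85), so that the lysozyme genes were not among the antibacterial genes called there.

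With the control antibody in WT, 2 of 14 effectors rose (Ncf4 by 0.90) and 2 of 12 peptidoglycan genes fell (Nlrp3 by 1.07). In that comparison 3.78% of genes rose and 5.95% fell. With the IFNAR1 antibody in WT, 7.38% of genes rose and 3.84% fell. There 1 of 12 genes on the peptidoglycan list fell, Naip2 (by 0.74), a member with another ligand. Of 14 effectors, 1 rose and 1 fell (Lbp by 1.19 and Cyba by 0.55). In cKO, where 2.44% rose and 2.25% fell, 1 peptidoglycan gene rose and 1 fell (Nlrp3 by 1.17 and Slc15a3 by 0.83). The shares of all genes called higher and lower were 19.1% and 17.2% with Sting loss, 5.9% and 3.42% with Mavs loss, and 4.81% and 5.75% with Irf7 loss. In the double KO groups, the peptidoglycan list had 4 of 13 higher and 1 lower with Sting loss, 2 lower with Mavs loss and 1 lower with Irf7 loss. The effectors had 8 of 17 higher with Sting loss (Camp by 0.90), 1 higher and 3 lower with Mavs loss, and 1 higher and 4 lower with Irf7 loss (Acod1 by 1.21, Lcn2 by -1.24).

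The genes whose levels ran most like those of the lysozyme genes were found by Pearson's r of log2 CPM after each experiment's mean was taken off, as a description over libraries that share experiments and depth. Over the 36 WT libraries, Lyz2 itself was second among 7479 genes for likeness to Lyz1 (r = 0.80), between Anapc13 (0.81), a subunit of the anaphase-promoting complex, and Lamtor4 (0.78), a part of the lysosomal Ragulator complex. Lyz2 ran most like Cd302 (0.89), Rnpep (0.88) and Slc9a3r1 (0.84) there. Misplaced Lyz2 reads would also make Lyz1 run like Lyz2 in WT, and their part was not tested. Over the 43 cKO and double KO libraries, Lyz1 ran most like Slc38a6 (0.78), the proton channel Hvcn1 (0.78) and the fatty acid-binding protein Fabp5 (0.72). The residual Lyz2 ran most like Ctnnb1 (0.76), Gabarapl2 (0.75) and Slc39a11 (0.72). Only genes whose average reached 3 on the log2 CPM scale in each experiment could be listed. In cKO cells Lyz2 averaged 2.48 CPM in the peritoneal group, and Lyz1 3.33 and 1.06 CPM on day 8 without and with IFNγ. Neither lysozyme gene could thus be listed for the other there, and their likeness in these libraries was not tested.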

How the data were processed

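RNA was measured by paired-end sequencing. The authors trimmed reads with cutadapt and aligned them to mm10 with STAR. The deposited files hold STAR's raw gene counts, of which the unstranded column was used; rows that name no gene were left out. Counts of each experiment were filtered with filterByExpr (10 counts, 15 in total), scaled by TMM and tested with edgeR 4.0.16 (quasi-likelihood, R 4.3.3) with Benjamini-Hochberg adjustment over all genes at 0.05, with a term for each group. Grouped replicates are biological replicates by their titles, which do not say which animal each came from. The p-values measure the spread between these samples. CPM per kilobase used exon length in GENCODE M21. Means carry SD, and fold changes SE. Alternatives used DESeq2 1.42.0, no filter, a replicate block and each library left out. The members and gene lists were chosen with earlier results of these data known. Genes named from lists were the called member with the largest rise and fall, and for likeness the 3 genes with the highest r.

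On simulated counts (time course, 15955 genes), 67.6% of genes changed by log2 1 and 100% of those changed by log2 2 were recovered. The simulation gave all genes a single dispersion of 0.04 and changed only well-counted genes. The replicate SD of log2 Lyz1 was 0.50 over cKO days 3 and 5 and 0.87 over cKO no and control antibody. The recovery rates need not hold for Lyz1. Replicates differed by more than sampling noise in every pair within a group (chi-square over its degrees of freedom at least 3.67). The labels do not tie a WT replicate to a cKO replicate. In peritoneal macrophages all 3 correlations of deviations between same-numbered WT and cKO libraries exceeded 0.1 (0.144 to 0.194). There the blocked Lyz1 difference was 2.95 (SE 0.32). All 3 also did so between WT and cKO on days 3 and 7, between days 5 and 7 in cKO, and in WT between untreated and IFNγ and between no and control antibody. Such correlations do not settle a pairing. Between genotypes in the antibody experiment they ran from -0.579 to 0.609. The block changed no call in the comparisons in which all 3 correlations exceeded 0.1. 2 day 8 cKO libraries with conflicting labels were put in no group. Floors cover counting error only.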

Additional observations from a re-analysis of the deposited data

How the results depend on the processing

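Of 490 values with 1 library left out, 445 kept their side of the threshold, as did 480 of 504 under other settings. Values without a test were counted if they kept their direction and stayed within the replicate SD. A tested value that passed in neither fit was counted as kept even if its direction turned. Lyz2 from day 5 to day 7 in cKO, for example, ran from -0.41 to 0.49 with 1 library left out. The cause of the changes below was not tested. By edgeR unless named, Lyz1 between days 3 and 5 in cKO was lost with estimated trended dispersions, an alternative chosen after seeing the data (-1.14, adjusted p = 0.0562), and with only the groups compared (-1.12, 0.0700). Lyz1 with the control antibody in cKO was gained by DESeq2 (1.61, 0.00664) and without a filter (1.54, 0.0420). In WT under the IFNAR1 antibody, Lyz1 was lost with only the groups compared (-1.44, 0.0795), as was Lyz2 (-0.92, 0.194), which was also lost with the strand column of larger total (-0.93, 0.0506). Against cKO set 1 alone, Lyz1 in the Sting double KO was lost (0.63) and Lyz2 reversed (-0.011), and in the Mavs double KO both were gained (-1.55 and -1.0). Lyz1 in the Mavs double KO was also gained with only the groups compared (-0.96, 0.0447).

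For cKO against WT, with no test, the strand column gave 0.60 for Lyz1 and -10.98 for Lyz2 on day 8 untreated, where placing the conflicting libraries by library name or title gave -10.61 and -11.03 for Lyz2. The same placing reversed Lyz1 under IFNγ (0.074 and 0.051), and the strand column reversed Lyz1 in set 3 (-0.25). The sum of both genes was 0.0874% of WT on day 8 untreated and 6.36% in peritoneal macrophages with the strand column, and 6.57% there without length. With the replicate number as a block, 84 of 86 values were unchanged in call, and Lyz1 with the control antibody in cKO was gained (1.50, or 1.47 with a block within genotype). In that comparison the same-numbered libraries correlated at 0.192, 0.0703 and 0.135, so not every pair was above 0.1. Whether they came from the same animals is not known from the labels.

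With 1 library left out in turn, the log2 values ranged as follows. Lyz1 in cKO between days 3 and 5 ran from -1.37 to -0.89. Under IFNγ in cKO, Lyz1 ran from -7.88 to -0.63 and Lyz2 from -0.66 to 2.0, and the difference between genotypes from -7.62 to -0.36 for Lyz1 and from -0.71 to 1.93 for Lyz2. Without the deeper IFNγ library (cKO replicate 2) both differences between genotypes passed (adjusted p = 0.0350 and 0.00200). With the control antibody, Lyz1 ran from 1.66 to 1.83 in WT and from 1.08 to 2.02 in cKO, and Lyz2 from 1.95 to 2.36 in cKO. With the IFNAR1 antibody, Lyz1 ran from -1.83 to -1.20 in WT and from -1.12 to -0.18 in cKO, and Lyz2 from -1.05 to -0.76 in WT. Lyz2 in the Sting double KO ran from 0.45 to 0.82. For cKO against WT, Lyz1 ran from 2.56 to 3.38 in peritoneal macrophages, from 0.22 to 1.01 in set 2, from -0.075 to 0.33 in set 3 and from -7.25 to -0.010 under IFNγ, and Lyz2 from -10.98 to -10.65 on day 8 untreated and from -11.54 to -8.87 under IFNγ. The sum of both genes ran from 6.23 to 7.58% of WT in peritoneal macrophages, from 0.325 to 0.493% without antibody, from 0.326 to 0.401% with the IFNAR1 antibody and from 0.187 to 0.209% in set 1.

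Depth limits Lyz1 on day 8, where it had 0 to 46 counts in each grouped library.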

Other observations

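The 2 day 8 cKO libraries whose title and library name disagree on IFNγ are in no comparison. The one titled as IFNγ-treated had 45 Lyz1 counts (3.72 CPM) and 95 Lyz2 counts (7.84 CPM). The one titled as untreated had 33 Lyz1 counts (3.51 CPM) and 28 Lyz2 counts (2.98 CPM).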
